A study of Mus musculus with 24 samples.

Results

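This account describes genes of mouse white fat whose mean over both high-fat diets differed from that on a low-fat diet. It asks which of them followed fat content whatever the type of fat. The members were chosen by the diet named in the array titles: 8 arrays of white adipose tissue from mice on a high-fat diet were set against 4 from mice on a low-fat diet, 12 of the 24 arrays in the series. The other 12 hold brown adipose tissue of mice on the same 3 diets and are used only for the comparison of tissues at the end. All mice were male C57Bl/6J. The high-fat mice had been fed either a corn oil high-fat diet, rich in n-6 fatty acids, or a high-fat diet with eicosapentaenoic and docosahexaenoic acid (EPA/DHA), which are long-chain n-3 fatty acids, with 4 arrays for each. The labels give no fat percentage, feeding time or age, and they name no white fat depot. The submitters had picked 4 mice for each diet as typical of its body weights and of its plasma triglyceride and cholesterol, so the spread between arrays can be smaller than that between all mice of a diet. The labels do not say whether each array held the RNA of a separate mouse, and p-values measure the spread between these arrays.

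Values are log2 expression from Illumina bead arrays, as processed by the authors, and ran from 6.95 to 14.79. On a plain log2 scale a difference of 1 is a 2-fold change; whether this scale is plain or variance-stabilised is not given in the sources used here, and differences of dim genes can be understated. The extraction text names skeletal muscle, while the tissue label says white adipose tissue. The adipocyte hormone genes Adipoq (13.99 to 14.42) and Lep (13.21 to 14.70) lay near the top of the scale in all 12 arrays, and the mean level of 11 skeletal muscle markers was only 7.78 to 8.04. The mean level of 15 liver markers ran from 9.85 to 12.23 among the low-fat arrays and from 9.55 to 12.28 among the high-fat arrays, so liver-type transcripts varied strongly within each diet. The brown adipocyte score stood high in EPA/DHA replicate 2 (9.29) and in corn-oil replicate 4 (8.45), against 7.63 to 8.12 in the other high-fat arrays and 7.68 to 8.03 in the low-fat ones. Each white fat array correlated with the remaining ones at a mean of 0.986 to 0.992. In bulk tissue, fewer cells of a type and less RNA per cell cannot be told apart.

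White fat stores dietary fatty acids as triglyceride in adipocytes, which enlarge on a high-fat diet, and its macrophages, vessels and matrix change with it. A fatty acid must be joined to coenzyme A before it is stored or burned, and adipocytes also hold cholesterol in their membranes and lipid droplets. The type of fatty acid matters as well: n-3 fatty acids act through nuclear and cell-surface receptors and are known to restrain inflammatory and lipogenic programmes. The comparison of the mean of both high-fat diets with the low-fat diet stands for the fat content. Anything else that differed between these diets cannot be told apart from it. EPA/DHA minus corn oil, a difference that takes no mean from the low-fat arrays, addresses the fat type.

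For the mean of both high-fat diets, 14 genes were called higher and 15 lower than on the low-fat diet. Of these 29, 12 also differed between the fats, and 2 were alike between the fats as described below. The largest falls were those of Net1 (-1.16 ± 0.19, SE), an activator of the small GTPase RhoA, Nnat (-1.08 ± 0.16), an imprinted gene whose small membrane protein neuronatin sits in the endoplasmic reticulum, and Rprml (-0.62 ± 0.06), a relative of the cell-cycle arrest gene Rprm. The largest rise of the mean was that of Ubd (1.30 ± 0.17), which came from 1 diet, and among rises without overlap between high-fat and low-fat arrays the largest was that of Tubb5 (0.50 ± 0.08), a beta-tubulin. The 29 genes are 0.217% of the 13349 tested, 0.105% higher and 0.112% lower, by limma with Benjamini-Hochberg adjustment over all 27168 kept probes and a threshold of 0.05 (adjusted p from 0.00788 to 0.0488). At an unadjusted p under 0.05 there were 1916 genes. The called differences ran in size from 0.10 to 1.30, while the median 95% interval of a gene reached 0.099 either side of its difference.

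The 8 high-fat and 4 low-fat arrays did not overlap for 65 genes that were higher (0.487%) and 100 that were lower (0.749%). Of the 29 called genes 16 did not overlap and 13 did. The count of 29 depended on single arrays. It was 3, 4 and 2 without low-fat replicates 1, 2 and 4, and 12, 2, 8 and 13 without corn-oil replicates 1 to 4. It was 19 and 7 without EPA/DHA replicates 1 and 4, and it was 21 without low-fat replicate 3 and 20 and 35 without EPA/DHA replicates 2 and 3. With the liver marker score of each array as a covariate 6 of the 29 kept their call, and with the replicate number as a block 1 did (Rprml). Rprml and Fgfrl1 passed without any 1 of the 12 arrays, and Morf4l2, Zfp275 and Car12 passed in none of those 12 fits.

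Rprml was, with Fgfrl1, 1 of the 2 genes with the smallest adjusted p. Its level was 8.35, 8.41, 8.24 and 8.54 in the low-fat arrays. It was 7.71, 7.61, 7.66 and 7.89 on corn oil and 7.80, 7.77, 7.84 and 7.85 on EPA/DHA. Every high-fat array lay below every low-fat array, and the ranges of the high-fat diets overlapped. Rprml fell by 0.62 (SE 0.06, 95% interval -0.75 to -0.49, limma adjusted p = 0.00788), by 0.66 on corn oil and by 0.57 on EPA/DHA, both measured against the same 4 low-fat arrays. EPA/DHA minus corn oil was 0.09 (95% interval -0.06 to 0.24, adjusted p = 0.601). It passed under all 24 alternative analyses of the pooled comparison.

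Fgfrl1, which encodes a receptor that binds fibroblast growth factors but lacks the kinase domain of the other FGF receptors, was as sharply separated. Its low-fat levels were 10.14, 10.19, 10.07 and 10.20. The high-fat arrays ran from 9.62 through a median of 9.77 to 9.90. No high-fat array reached the lowest low-fat array, and the corn-oil arrays (9.62 to 9.77) lay below the EPA/DHA arrays (9.78 to 9.90). The pooled difference was -0.39 ± 0.04 (limma adjusted p = 0.00788), and the difference between the fats was 0.16 ± 0.04, which did not pass (adjusted p = 0.0798, 95% interval 0.07 to 0.25). Fgfrl1 lost its call in 3 alternatives, namely with the replicate number as a block (adjusted p = 0.0549), with all 24 arrays in 1 fit (adjusted p = 0.196) and with all high-fat arrays as 1 group (0.0554).

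Acsl3 was the rising counterpart. It encodes a long-chain acyl-CoA synthetase of the endoplasmic reticulum and lipid droplets. The low-fat arrays were at 7.91, 7.89, 8.06 and 7.88. Corn oil gave 8.50, 8.20, 8.23 and 8.32, and EPA/DHA gave 8.30, 8.25, 8.38 and 8.45. All 8 high-fat arrays were above all low-fat arrays. The pooled difference was 0.39 ± 0.06 (limma adjusted p = 0.0418), with 0.38 on corn oil and 0.41 on EPA/DHA, and EPA/DHA minus corn oil was 0.03 (95% interval -0.12 to 0.19). Acsl3 passed in 3 of the 12 fits that left out 1 array, with an adjusted p between 0.0358 and 0.135.

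A gene was counted as alike between the fats when its high-fat and low-fat arrays did not overlap and the 95% interval of EPA/DHA minus corn oil lay within 0.5 times its pooled difference, either way. Rprml and Acsl3 were the 2 called genes that met this description; with a limit of 0.25 there was none. The count was 1 without low-fat replicates 2 or 4, any 1 corn-oil array or EPA/DHA replicate 4, 4 without EPA/DHA replicate 3 and 7 without low-fat replicate 3. The promoters of Rprml, Acsl3 and Fgfrl1 are shown because these genes carry the result on fat content with the least difference between the fats or the firmest call. Each holds 300 bases around the gene's start, 5′ to 3′ along the gene, from RefSeq on build GRCm38.p6. All 3 lie on the plus strand, at chr11:103649259-103649558 for Rprml, chr1:78657575-78657874 for Acsl3 and chr5:108693979-108694278 for Fgfrl1.
Rprml: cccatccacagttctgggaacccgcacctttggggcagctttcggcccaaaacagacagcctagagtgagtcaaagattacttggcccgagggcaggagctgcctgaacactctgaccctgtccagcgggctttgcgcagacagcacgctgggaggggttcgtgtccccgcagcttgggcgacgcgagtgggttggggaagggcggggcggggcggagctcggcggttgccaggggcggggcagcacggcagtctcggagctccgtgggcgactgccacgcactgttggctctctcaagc
Acsl3: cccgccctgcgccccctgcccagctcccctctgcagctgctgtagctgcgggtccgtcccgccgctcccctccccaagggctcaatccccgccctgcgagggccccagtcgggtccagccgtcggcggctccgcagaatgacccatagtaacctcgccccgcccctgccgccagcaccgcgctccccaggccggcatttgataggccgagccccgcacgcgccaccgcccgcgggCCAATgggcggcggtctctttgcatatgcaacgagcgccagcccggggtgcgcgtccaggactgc
Fgfrl1: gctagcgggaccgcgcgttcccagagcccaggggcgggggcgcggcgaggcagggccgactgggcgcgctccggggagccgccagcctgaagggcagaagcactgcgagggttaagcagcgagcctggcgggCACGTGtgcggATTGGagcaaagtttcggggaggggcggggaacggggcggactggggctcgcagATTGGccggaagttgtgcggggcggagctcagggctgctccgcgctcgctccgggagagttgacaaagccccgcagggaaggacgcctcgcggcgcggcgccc
Capitals mark matches on either strand to CCAAT, the box bound by the factor NF-Y, and to CACGTG, the E-box bound by USF and clock factors. The sterol element TCACNCCAC was searched as well. Fgfrl1 held 2 CCAAT boxes and 1 CACGTG, Acsl3 held 1 CCAAT box, and Rprml held none of these letters in this window. CCAAT was found in 37.4% of the 32851 promoters of the table, CACGTG in 7.15% and TCACNCCAC in 1.24%. Among the 10727 tested genes with a promoter the shares were 42.3%, 11% and 1.41%. Among the 24 called genes with a promoter they were 58.3% (14 genes), 25% (6 genes) and 4.17% (1 gene). These are matches of letters, not binding sites.

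**Figure D1:**
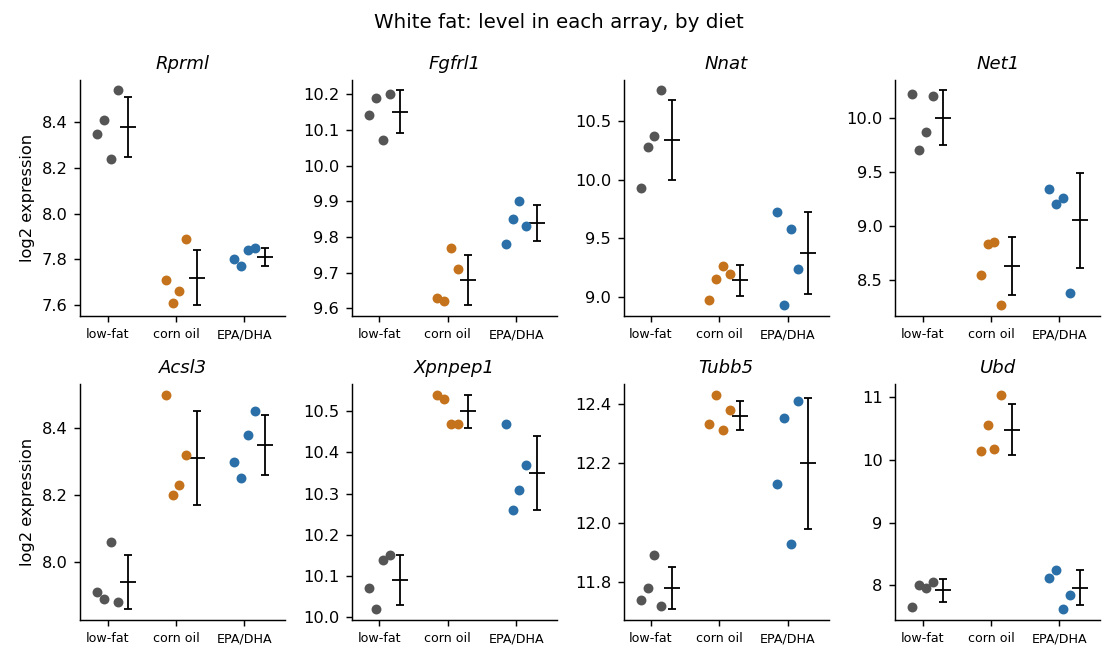
Log2 expression of 8 called genes in white fat (vertical axis, a separate range for each gene), with a point for each array and the mean ± SD beside the 4 arrays of each diet. Rprml, Fgfrl1, Nnat and Net1 are lower and Acsl3, Xpnpep1 and Tubb5 higher in every high-fat array than in any low-fat array, whereas Ubd is high only in the corn-oil arrays (10.14 to 11.04).

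Nnat had 3 probes. The brightest read 9.93, 10.28, 10.37 and 10.76 on the low-fat diet. On corn oil it read 8.97, 9.15, 9.26 and 9.19, and on EPA/DHA 9.72, 8.93, 9.58 and 9.24. The groups did not overlap, with EPA/DHA replicate 1 (9.72) closest to the lowest low-fat array (9.93). Nnat fell by 1.08 (SE 0.16, limma adjusted p = 0.0418), by 1.20 on corn oil and by 0.97 on EPA/DHA, and EPA/DHA minus corn oil (0.23 ± 0.19) did not pass. A second Nnat probe fell by 1.35 (adjusted p = 0.0346) and the third was at -0.66 (adjusted p = 0.0506). The call of the brightest probe held in 3 of the 12 fits without 1 array.

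Nnat lies inside the span of Blcap in the RefSeq annotation. Blcap, which was looked at after its values were seen, read 10.62 to 10.95 on the low-fat diet and no higher than 10.52 on the high-fat diets, with no overlap. Its difference of -0.50 ± 0.09 lay just outside the threshold (adjusted p = 0.0506). In brown fat the pooled difference was 0.02 ± 0.15 for Nnat and 0.14 ± 0.12 for Blcap. The difference of the effects between the tissues did not pass for either gene (adjusted p = 0.0887 and 0.121).

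Net1 read 10.22, 9.70, 9.87 and 10.20 on the low-fat diet. The high-fat arrays ran from 8.27 through a median of 8.84 to 9.34. The groups were apart, but within EPA/DHA replicate 4 (8.38) stood below the other 3 arrays (up to 9.34). The pooled difference was -1.16 ± 0.19 (limma adjusted p = 0.0454), a second probe was at -1.10 (adjusted p = 0.0585), and the call held in 1 of 12 fits without 1 array. EPA/DHA minus corn oil was 0.42 ± 0.22 and did not pass.

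Among the other called falls, Phf10, a subunit of the PBAF chromatin remodeller, fell by 0.29 (SE 0.04) and Cbx7, a Polycomb chromobox protein, by 0.25 (SE 0.03). A second, dimmer probe of Phf10 was at -0.04 (adjusted p = 0.913). Usf3, a helix-loop-helix protein, was at -0.24 ± 0.04 and the zinc finger gene Zfp275 at -0.10 ± 0.02. Cebpa, a transcription factor that drives adipocyte differentiation, fell by 0.38 (SE 0.06, adjusted p = 0.0488). Its arrays overlapped, since EPA/DHA replicate 3 (8.48) exceeded low-fat replicate 4 (8.46), and it passed in 1 of 12 fits without 1 array.

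The remaining falls were those of Phpt1, a protein histidine phosphatase (-0.36 ± 0.04), Sec24b, a cargo-binding subunit of the COPII coat (-0.34 ± 0.05), Fbxo38, an F-box protein (-0.22 ± 0.03), and S100a1, a calcium-binding protein (-0.50 ± 0.08). Ankhd1 (-0.26 ± 0.04) and Wls, which carries Wnt proteins to the cell surface (-0.21 ± 0.03), are named after their values were seen. Further probes of Ankhd1 (0.01 and -0.16) and of Wls (-0.19, -0.12, -0.03 and 0.06) did not pass. Phpt1, Cbx7, Zfp275 and S100a1 also differed between the fats, all being lower on corn oil (adjusted p = 0.0175, 0.0359, 0.0387 and 0.00161). Phpt1 differed from low-fat by -0.50 on corn oil and by -0.21 on EPA/DHA. Cbx7, Phpt1 and Xpnpep1 each passed in 8 of 12 fits without 1 array, and the rest of the falls in this paragraph in 3 or fewer.

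Beside Acsl3, the called genes that rose without overlap were Tubb5, Xpnpep1, Sf3b4 and Morf4l2. Tubb5 read 11.74, 11.78, 11.89 and 11.72 on the low-fat diet and between 11.93 and 12.43 on the high-fat diets. Xpnpep1, an aminopeptidase that removes a residue before proline, read 10.07, 10.02, 10.14 and 10.15 and then 10.26 to 10.54. The differences were 0.50 ± 0.08 (limma adjusted p = 0.0418) and 0.33 ± 0.04 (adjusted p = 0.0198). Every high-fat array of both genes was above the low-fat range. Sf3b4, a splicing factor of the U2 particle, rose by 0.20 (SE 0.03) and Morf4l2, a chromatin protein, by 0.17 (SE 0.03). Tubulin genes are close in sequence and probe sequences were not aligned, so Tubb5 is uncertain. Of the further probes, those of Xpnpep1 (-0.01 and 0.03) and of Sf3b4 did not follow the brightest probe.

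Some called genes also differed between the fats. Of the 29, 12 also passed for EPA/DHA minus corn oil (8 that rose and 4 that fell), and 17 did not (6 that rose and 11 that fell). Over all genes tested, 313 (2.34%) passed for EPA/DHA minus corn oil, 1.18% higher and 1.17% lower on EPA/DHA. That count was 170, 170, 155 and 198 without corn-oil replicates 1 to 4 and 118 and 137 without EPA/DHA replicates 3 and 4. The low-fat arrays enter this contrast only through the shared estimate of the spread. In 27 of the 29 its sign was opposite to the pooled difference, so that corn oil lay further from low-fat than EPA/DHA did; Acsl3 and Qrsl1, a subunit of a mitochondrial amidotransferase (0.27 ± 0.04, chosen after its values were seen), were the exceptions. Against the shared low-fat arrays, 517 genes (3.87%) passed on corn oil and 4 (0.0300%) on EPA/DHA.

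The 8 rises that also passed for fat type were the mean of a strong and a weak diet. Ubd, whose small protein tags others for degradation, read 7.66, 8.01, 7.96 and 8.05 in the low-fat arrays. It read 10.14, 10.55, 10.18 and 11.04 on corn oil and 8.11, 8.25, 7.62 and 7.85 on EPA/DHA. The EPA/DHA arrays overlapped the low-fat arrays, and corn oil was above both. Col16a1, a fibril-associated collagen, differed by 1.12 ± 0.10 on corn oil and 0.03 ± 0.10 on EPA/DHA. The deubiquitinase gene Stambpl1 differed by 0.90 ± 0.08 and 0.11 ± 0.08, and Dok2, an adaptor of blood cell receptors, by 0.63 ± 0.06 and 0.03 ± 0.06. Among the falls S100a1 differed by -0.93 ± 0.09 and -0.07 ± 0.09. For Ubd, Col16a1, Stambpl1, S100a1 and Dok2 the adjusted p of EPA/DHA minus corn oil lay between 9.2e-04 and 0.00204. Gnb5, Dnmt3l, Kcnj14 and Car12, noted after their values were seen, were also nearer to low-fat on EPA/DHA, with 0.20, 0.17, 0.09 and 0.04 against 0.58, 0.59, 0.48 and 0.25 on corn oil. A second probe of Gnb5 was at 0.07 and did not pass. Car12 lay at the floor outside corn oil, with means of 7.09 on low-fat and 7.13 on EPA/DHA. The filter cutoff was 7.11, so its place above the filter leaned on the corn-oil arrays where it was high. Kcnj14 (7.25) and Dnmt3l (7.24) were also near the floor on the low-fat diet.

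**Figure D2:**
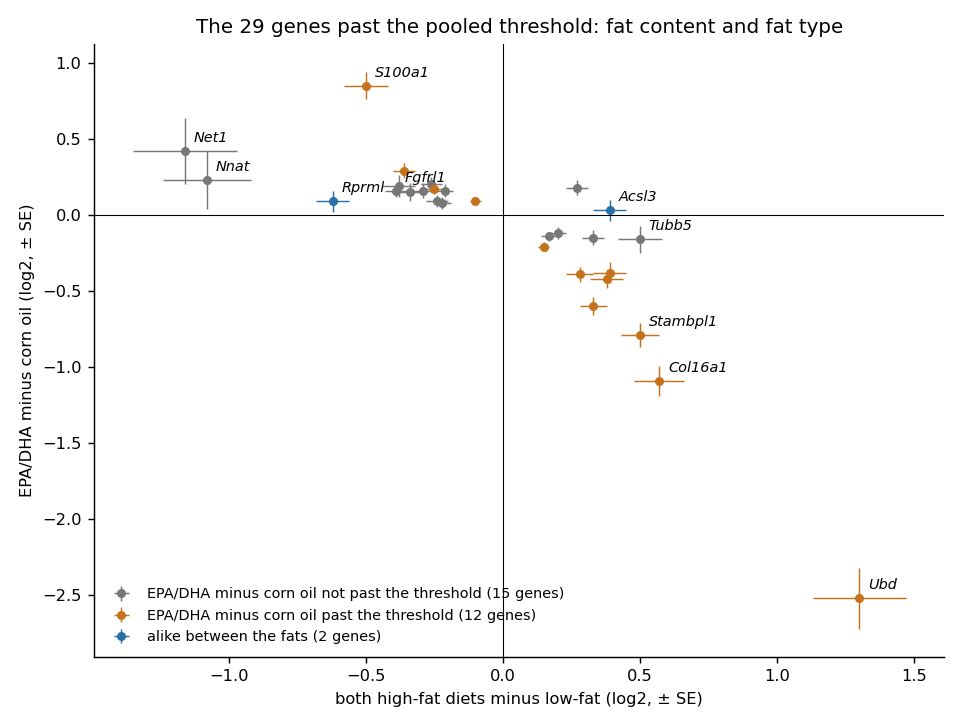
The 29 called genes, with the mean of both high-fat diets minus low-fat on the horizontal axis and EPA/DHA minus corn oil on the vertical axis (log2, bars are ± SE). Rprml and Acsl3 lie close to the horizontal line, and Ubd, at 1.30 and -2.52, lies farthest from it.

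Lists of genes are given by counts and medians, beside a median of 0.00 over all genes tested, and carry no test. Over all genes tested 0.217% were called. The share without overlap was 0.487% higher and 0.749% lower. The highest pooled median among the 25 pathway lists was that of cholesterol synthesis and uptake. All 17 measured members had a positive pooled difference, from 0.03 to 0.68, and the median was 0.23, with 0.19 on corn oil, 0.35 on EPA/DHA and 0.04 for EPA/DHA minus corn oil. None of the 17 was called, and 4 did not overlap, all of them higher. The mean level of the list was 7.88 to 8.23 in the low-fat arrays, 8.35 to 8.39 on corn oil and 8.24 to 8.54 on EPA/DHA, so the arrays did not overlap. The list median stayed between 0.18 and 0.28 under the 24 alternatives.

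The members of that list named here were chosen after their values were seen. Msmo1, the sterol C4 demethylase, read 8.55, 8.36, 8.31 and 8.16 on the low-fat diet and 8.73 to 9.21 on the high-fat diets. Hsd17b7, which reduces the 3-ketone left by that demethylation, read 8.62, 8.71, 8.54 and 8.26 and then 8.82 to 9.35. Cyp51, the lanosterol demethylase, read 7.99, 7.91, 7.77 and 7.59 and then 8.02 to 8.44. None of these 3 overlapped, and neither did Mvd, which makes isopentenyl diphosphate. Their pooled differences were 0.57 ± 0.10 (limma adjusted p = 0.0546), 0.49 ± 0.09 (0.0584) and 0.45 ± 0.09 (0.0842), and that of Mvd was 0.21 ± 0.06 (0.195). Fdps, which makes farnesyl diphosphate, was at 0.68 ± 0.21 and Lss, which closes the sterol ring system, at 0.60 ± 0.14, with overlap in both; second probes of Fdps (0.03) and Lss did not follow. Low-fat replicate 4 was the lowest low-fat array for each of these 6 genes.

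Insig1, which holds the SREBP transcription factors in the endoplasmic reticulum when sterol is plentiful, had 3 probes. The brightest was at 0.23 ± 0.13 (adjusted p = 0.582) and the dimmer ones rose by 0.73 (adjusted p = 0.0347) and 0.65 (adjusted p = 0.0418). Both dimmer probes were also higher on EPA/DHA than on corn oil, by 0.58 (adjusted p = 0.0359) and 0.61 (0.0306). Of the list's genes, 14 had a promoter in the RefSeq table. All 14 held CCAAT on either strand, against 42.3% of the 10727 tested genes with a promoter, 4 held CACGTG and 0 held TCACNCCAC.

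**Figure D3:**
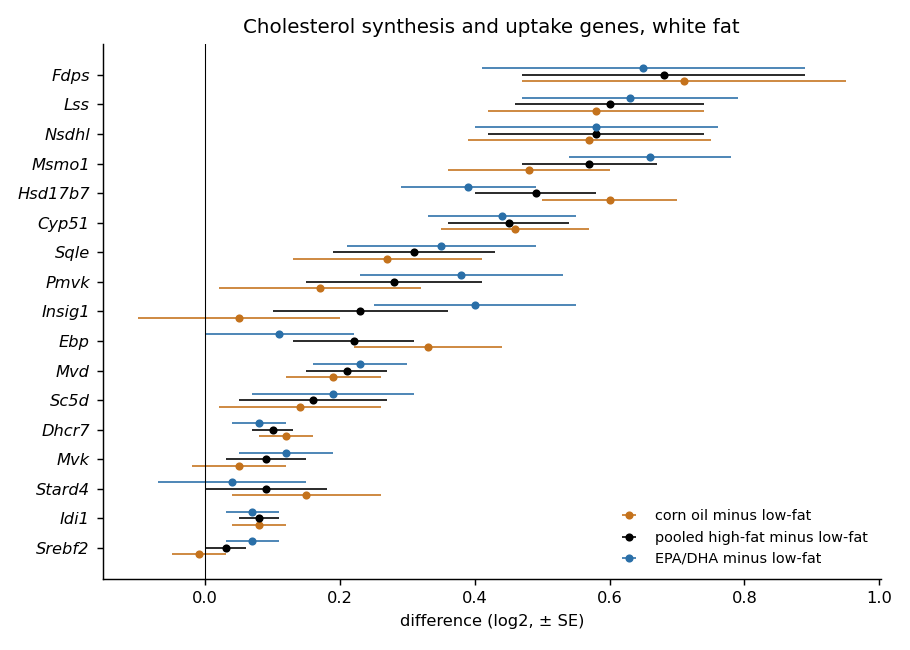
Difference from low-fat in white fat (horizontal axis, log2, bars are ± SE) for the 17 measured genes of cholesterol synthesis and uptake (vertical axis), on corn oil, on EPA/DHA and for the mean of both. The black points all lie at or above 0.03, with Fdps at the top (0.68), and corn oil and EPA/DHA share the low-fat arrays.

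Lipid storage genes divided. Plin2, the coat protein of lipid droplets, read 9.85, 9.91, 9.79 and 9.24 on the low-fat diet and 10.13 to 10.58 on the high-fat diets. No array overlapped, the difference was 0.62 ± 0.13 (limma adjusted p = 0.0887), and corn oil (0.63) and EPA/DHA (0.61) were close. Pck1, the enzyme of glycerol synthesis from pyruvate, was at -0.61 ± 0.13 (adjusted p = 0.0914), with overlap. Over the 25 storage and lipolysis genes the median was 0.02 and 0 were called, against 0.217% of all genes tested. Only 1 did not overlap, namely Plin2, against 0.487% of all genes that were higher without overlap. Plin2 and Pck1, like the further list genes below, were chosen with their values known.

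Lipogenesis and desaturation had a pooled median of 0.07 over 20 genes, made of -0.02 on corn oil and 0.35 on EPA/DHA. Citric acid cycle genes (19) had 0.04, from -0.10 and 0.24, and oxidative phosphorylation genes (32) had 0.03, from -0.13 and 0.20. No gene of these 3 lists was called in the pooled comparison, and 3, 5 and 7 of them passed for EPA/DHA minus corn oil, all higher on EPA/DHA, against 1.18% of all genes tested. The 12 brown adipocyte markers moved with them, with a median of 0.04 on corn oil, 0.44 on EPA/DHA and 0.37 for EPA/DHA minus corn oil, and their pooled median of 0.31 was the highest of all 40 lists. The pooled median of the brown adipocyte list ran from 0.02 to 0.44 over the 24 alternatives, and from 0.14 to 0.38 without 1 array. Fatty acid oxidation genes (25) had 0.04, from -0.06 and 0.16. The medians of oxidative phosphorylation, citric acid cycle and fatty acid oxidation turned negative, to -0.02 at the lowest, without the pair of arrays of raised Ucp1 and with the brown adipocyte score as a covariate, and that of fatty acid oxidation also without EPA/DHA replicate 2. The median of lipogenesis stayed positive under all 24 alternatives. Branched-chain amino acid breakdown (18 genes) had a median of -0.18, from -0.32 on corn oil and 0.03 on EPA/DHA, and its member Ivd was at -0.49 ± 0.08 (adjusted p = 0.0506).

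Immune and matrix lists leaned to corn oil. MHC class II and antigen presentation (16 genes) had a pooled median of 0.13, from 0.45 on corn oil and -0.04 on EPA/DHA; 6 members passed for EPA/DHA minus corn oil, all lower on EPA/DHA, against 1.17% of all genes tested. H2-DMb2, a chaperone subunit that helps load peptides, lay at 8.24 to 8.50 in the low-fat arrays. Its corn-oil arrays lay at 9.12 to 9.45 and its EPA/DHA arrays at 8.10 to 8.50, and its pooled difference of 0.45 ± 0.08 did not pass (adjusted p = 0.0546). Collagens and matrix (28 genes, with Col16a1 the called member) had 0.10, from 0.23 and -0.06. Lists of 22 interferon-responsive genes (-0.01, with Ubd the called member) and 22 cytokines and chemokines (0.06) had medians near that of all genes. Ccl8, a chemokine, was at 1.25 ± 0.30 (adjusted p = 0.125).

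Genes of lipid-laden macrophages were high in some arrays of each high-fat diet. Gpnmb, a lysosomal glycoprotein, read 8.58, 8.86, 9.13 and 9.14 on the low-fat diet, 9.97, 12.04, 10.74 and 11.31 on corn oil and 12.10, 11.87, 8.68 and 9.01 on EPA/DHA. EPA/DHA replicates 1 and 2 were as high as the corn-oil arrays, while replicates 3 and 4 lay within the low-fat range. Dimmer probes of Gpnmb were at 0.38 and 0.15 and did not pass. Trem2, a lipid receptor of macrophages, was high in the same EPA/DHA arrays, with 8.82 and 9.01 against 7.36 in replicate 3. Its corn-oil replicate 1 (7.64) lay close to its low-fat arrays (7.29 to 7.58). Mmp12, a macrophage elastase, read 7.17 to 7.70 on the low-fat diet and 7.65 to 9.85 on the high-fat diets. None passed (1.79 ± 0.66, 0.79 ± 0.33 and 1.51 ± 0.37, adjusted p = 0.304, 0.372 and 0.123). The list of 20 lysosome and macrophage lipid genes had a median of 0.20, with 0.27 on corn oil and 0.12 on EPA/DHA, while 19 general macrophage markers had a mean level of 8.82 to 9.08 on the low-fat diet and 8.72 to 9.29 on the high-fat diets.

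Other cell markers moved in part with the diet. The mean of 9 neutrophil and eosinophil markers was 7.25 to 7.43 on the low-fat diet and 7.35 to 7.82 on the high-fat diets. The median of their pooled differences was only 0.03, with 6 positive and 3 negative. The highest was that of S100a8, at 1.14 ± 0.33 (limma adjusted p = 0.191). Mast cell markers (9 genes) gave 7.85 to 8.12 and 7.64 to 7.85. Mesothelial markers (9 genes) gave 7.86 to 8.15 and 7.52 to 7.95. The median pooled difference was -0.19 for the mast cell list and only -0.06 for the mesothelial list. Hdc and Mcpt4 of mast cells were at -0.44 ± 0.10 and -0.39 ± 0.09. Upk3b, the lowest member of the mesothelial list, was at -0.77 ± 0.23, and none of these passed. The scores of endothelial cells (9.28 to 9.51 and 9.29 to 9.53), preadipocytes (8.69 to 8.89 and 8.62 to 8.83) and white adipocytes (11.29 to 11.49 and 11.16 to 11.50) overlapped widely. The part of these cell types in the called genes was not tested.

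Circadian clock genes had the lowest list median, -0.22 over 15 genes, of which 12 were negative and 0 were called; it was -0.18 on corn oil and -0.12 on EPA/DHA. Dbp, an output gene of the clock, read 11.82, 10.50, 11.10 and 11.58 on the low-fat diet. It read 9.49, 9.77, 10.03 and 11.05 on corn oil and 9.24, 11.32, 9.43 and 8.82 on EPA/DHA. Corn-oil replicate 4 and EPA/DHA replicate 2 stayed in the low-fat range, and these are the arrays with raised brown adipocyte markers. Dbp was at -1.36 ± 0.46 (adjusted p = 0.257) and the clock repressor Per2 at -0.94 ± 0.25 (adjusted p = 0.16). The hour of tissue collection is not given in the sources used here, and its part was not tested.

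Growth signalling and cycle genes shifted by little. The growth hormone and IGF list had a median of -0.11 over 15 genes, 13 of them negative, and Igf1r, the IGF-1 receptor, read 7.85 to 8.07 and then 7.58 to 7.83 without overlap (-0.22 ± 0.05, adjusted p = 0.115). Igf1r had 2 further probes at 0.01 and -0.00. Irs2, an insulin receptor substrate, was at -0.54 ± 0.15 (adjusted p = 0.185), and the 22 adipocyte transcription factor and insulin genes had a median of -0.05, with 19 negative and Cebpa called. All 18 cell cycle genes were positive, with a median of 0.09 (0.16 on corn oil and 0.04 on EPA/DHA) and none called; Mcm5, a replication helicase subunit, was at 0.30 ± 0.07 (adjusted p = 0.111).

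**Figure D4:**
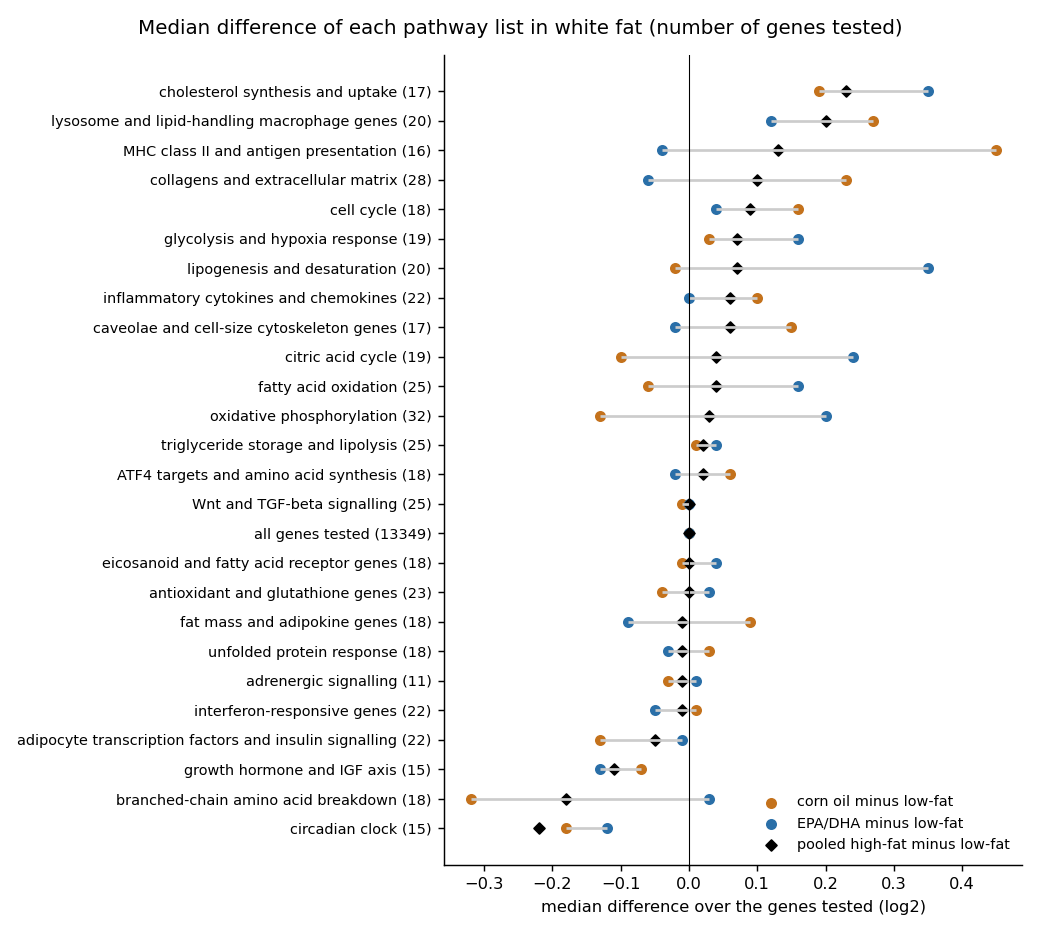
Median difference from low-fat (horizontal axis, log2) of the genes of 25 pathway lists and of all genes tested (vertical axis, number of genes in brackets), for corn oil, EPA/DHA and the mean of both. Cholesterol genes are highest (0.23) and clock genes lowest (-0.22) for the mean of both diets, and oxidative phosphorylation (-0.13 and 0.20) is split between the diets.

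The genes of fat mass and lipid synthesis that are usually read in such diets did not pass. Lep, the hormone of fat mass, read 13.31, 14.36, 14.14 and 13.21 on the low-fat diet and 13.42 to 14.70 on the high-fat diets. The pooled difference was 0.41 ± 0.24 (95% interval -0.12 to 0.94, limma adjusted p = 0.571). Low-fat replicates 2 and 3 were as high as the high-fat arrays. Mest, tied to adipocyte enlargement, was at 0.55 ± 0.43 (adjusted p = 0.711), with 1.44 on corn oil and -0.34 on EPA/DHA. Adipoq was at -0.07 ± 0.08, Scd1, the stearoyl-CoA desaturase, at 0.18 ± 0.11, Fasn, the fatty acid synthase, at 0.07 ± 0.19 and Ucp1 at 0.60 ± 0.66.

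Many genes lay just outside the threshold, 150 genes having an adjusted p under 0.1. Next to Cebpa (0.0488) on the inside, Nup210, Zfp212, Ivd, Cope and Blcap shared an adjusted p of 0.0506 on the outside. Among the neighbours Klf2, a transcription factor of vessel walls, read 9.87, 9.72, 9.62 and 10.15 on the low-fat diet and only 9.33 to 9.48 on the high-fat diets. Its high-fat arrays lay close together below the low-fat range, and the difference was -0.45 ± 0.08 (adjusted p = 0.0528). Glrx, a glutaredoxin, was at 0.57 ± 0.10 (adjusted p = 0.0585) and Ndrg1, a stress-responsive gene, at -0.49 ± 0.09 (adjusted p = 0.0546), with no overlap in either. A second probe of Ndrg1 fell by 0.53 (adjusted p = 0.0279).

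White and brown fat were compared by the difference of the pooled effect, fitted over all 24 arrays. Of 14262 genes tested, 11 passed (0.0771%), 8 with the higher effect in white fat and 3 with the lower. Without low-fat replicate 4 of white fat 4 passed, without low-fat replicates 2 and 3 of brown fat 5 and 4, and without low-fat replicate 4 of brown fat 19. The labels do not say whether white and brown arrays of the same number came from 1 mouse. With a replicate block across the tissues, as if they had, 1 gene passed (Tspan18, adjusted p = 0.00851), and Rprml (0.0823), Ubd (0.11), Hsd17b7 (0.0564) and Lamb2 (0.117) did not. The effect on Rprml was -0.62 in white and -0.10 in brown fat, a difference of -0.52 ± 0.07 (limma adjusted p = 0.00497). In brown fat Rprml read 7.25 to 7.39 on the low-fat diet, close to the floor, where a fall can be seen only in part. Ubd (1.30 against 0.06), Stambpl1 (0.50 against -0.06) and Kcnj14 (0.28 against -0.02) were the other called genes among the 11.

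Hsd17b7 and Lamb2 had opposite signs in the tissues. Hsd17b7 was at 0.49 ± 0.09 in white and -0.34 ± 0.09 in brown fat, a difference of 0.84 ± 0.14 (limma adjusted p = 0.0161). Lamb2, a laminin chain of basement membranes, was at -0.36 ± 0.08 and 0.37 ± 0.09, a difference of -0.73 ± 0.12 (adjusted p = 0.0206). In brown fat Msmo1 (-0.25 ± 0.16), Cyp51 (-0.19 ± 0.14), Fdps (-0.39 ± 0.22) and Plin2 (-0.23 ± 0.16) were also at negative values, but their differences between the tissues did not pass (adjusted p = 0.136, 0.182, 0.232 and 0.161). Tspan18, a tetraspanin, was at -0.62 ± 0.08 in brown fat and at 0.04 ± 0.06 in white fat, a difference of 0.66 ± 0.10 (limma adjusted p = 0.00801). Acsl3 was at -0.26 ± 0.19 in brown fat and Fgfrl1 at -0.04 ± 0.16, with no tissue difference past the threshold (adjusted p = 0.298 and 0.526).

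**Figure D5:**
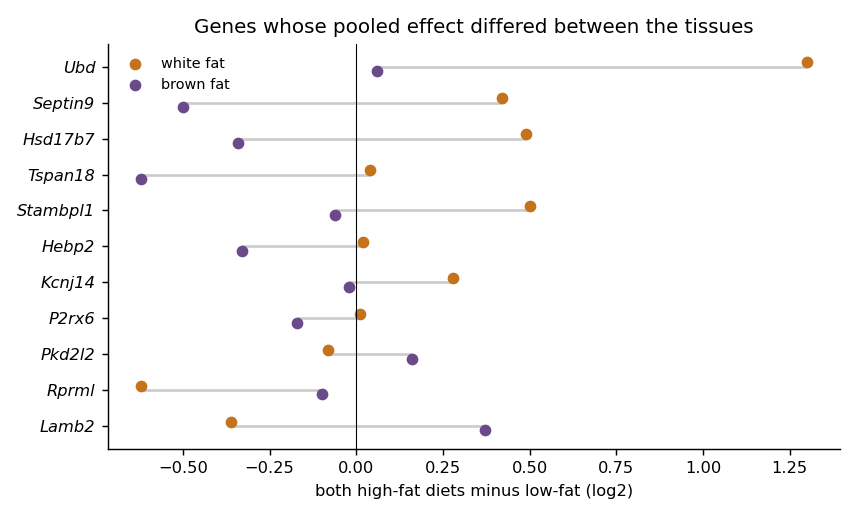
Mean of both high-fat diets minus low-fat (horizontal axis, log2) in white and in brown fat for 11 genes (vertical axis). Their pooled effect differed between the tissues in the fit without a replicate block across the tissues. With that block only Tspan18 passed. Rprml falls in white fat (-0.62) and stays near 0 in brown fat, and Hsd17b7 and Lamb2 lie on opposite sides of 0.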

How the data were processed

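The authors deposited a log2 value for each probe and array; lumi 2.18.0 is named per the submitters' processing notes, and no normalisation method is given in the sources used here. From the values, arrays had nearly the same distribution (sorted values within 0.00694), as after quantile normalisation, which hides a shift of the whole array. Of 45281 probes 34885 had 1 gene symbol, 18 had several and 10378 are unnamed here; 34818 matched a RefSeq gene (GRCm38.p6). Each of 19053 genes was represented by its probe of highest mean over the 24 arrays.

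The 12 white fat arrays were fitted in limma 3.58.1 (R 4.3.3) with 1 mean per diet and 1 estimate of the spread, on the 27168 probes with a mean above the 40th percentile (7.11). Tests were two-sided. Scores are mean log2 values of the list's kept genes. Named are the 12 largest rises and falls without overlap, up to 4 called members of each of 40 lists, up to 6 genes alike between the fats, the 5 past both the pooled and fat type contrasts and the 5 of the tissue contrast with the smallest adjusted p, and 7 set genes (Lep, Adipoq, Mest, Fasn, Scd1, Ucp1, Ubd); others are said to be chosen with values seen. Members, lists and rules were chosen with earlier results of these data known. The fits were tested on 20 simulated sets with independent noise for each probe, so variation shared between genes was not represented. Of the calls, 5.16% were false for the pooled contrast and 7.65% for the tissue contrast. A change of 0.25 was recovered for 70.1% and 49.2% of the changed probes. Same-numbered arrays of different diets correlated at -0.269 to 0.546, 7 of 12 pairs over 0.1. Pairs of different numbers were not set beside them, so this cannot exclude a block by replicate number. The main fit used no block. The number of arrays limits the precision.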

Additional observations from a re-analysis of the deposited data

Results flagged for a closer look

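A value of 1 array far from the other 3 of its diet was found in 16 of the 243 groups of 4 tested; chance alone gives about 1 in 20. Among called genes these were Acsl3 in low-fat replicate 3 (8.06, others 7.88 to 7.91), Net1 in EPA/DHA replicate 4 (8.38, others 9.20 to 9.34), Fbxo38 in EPA/DHA replicate 2 (8.70, others 8.58 to 8.60), S100a1 in EPA/DHA replicate 3 (11.65, others 11.91 to 11.95) and Kcnj14 in corn-oil replicate 1 (7.64, others 7.74 to 7.76). Glrx stood low in EPA/DHA replicate 2 (9.36, others 9.80 to 9.88). Adipoq stood low in low-fat replicate 1 (14.14) and high in EPA/DHA replicate 4 (14.42). Ucp1 stood high in 1 array of each diet, namely low-fat replicate 1 (8.02), corn-oil replicate 4 (9.38) and EPA/DHA replicate 2 (10.63). The brown adipocyte score stood high in the same high-fat arrays (8.45 and 9.29). The preadipocyte score was low in EPA/DHA replicate 3 (8.62), the mesothelial score in corn-oil replicate 3 (7.52) and the skeletal muscle score in EPA/DHA replicate 1 (7.79).

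The pooled effect differed between white and brown fat for 11 genes by the limma test of the difference. That test took the arrays of both tissues as independent, which the labels do not settle. With a replicate block across the tissues, as if the same mouse gave both, only Tspan18 passed (limma adjusted p = 0.00851). White minus brown was -0.52 for Rprml, 0.66 for Tspan18, 1.24 for Ubd, 0.84 for Hsd17b7, -0.73 for Lamb2, 0.31 for Kcnj14, 0.56 for Stambpl1, 0.18 for P2rx6, 0.91 for Septin9, 0.35 for Hebp2 and -0.24 for Pkd2l2. Septin9, a cytoskeletal filament protein, was at 0.42 in white and -0.50 in brown fat. P2rx6, Hebp2 and Pkd2l2 lay near the floor in white fat, at 7.10 to 7.33 in all arrays.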

How the results depend on the processing

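The pooled count of 29 genes was 7 with no filter on low values, 61 with a filter at the 60th percentile, 86 with a trended and robust prior, 44 with array weights, 108 with all 24 arrays in 1 fit, 6 with the liver score as a covariate and 1 with all high-fat arrays as 1 group; 23 passed with the brown adipocyte score as a covariate, 11 of them among the 29. The larger counts did not always hold all of the 29. Of these, 27 kept their call with the 60th percentile filter and 20 with the trended and robust prior. With array weights 29 kept it, and with all 24 arrays in 1 fit 15 did. With the replicate number as a block, which the labels neither give nor exclude, 1 passed (Rprml). Of the 12 arrays, 4 correlated best with their own number. Leaving out 1 array gave 2 to 35. Renewed quantile normalisation and median centring kept the same 29 genes. Without both arrays of raised Ucp1, an alternative chosen after seeing the data, 14 passed, 8 of them among the 29. For EPA/DHA minus corn oil the count was 204 with the liver score, 192 without both arrays of raised Ucp1 and 118 to 405 without 1 array. For the tissue difference it was 1 with a replicate block across the tissues, as if 1 mouse gave both, and 4 to 19 without 1 array; the replicate block within tissues gave 9. The 2 genes alike between the fats became 1 with no filter, the replicate block or the liver score (Rprml in each; run after seeing the data), 0 at the limit of 0.25 and 1 to 7 without 1 array.

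Signs turned for some named genes. Of the 29 called genes, 1 reversed its direction in at least 1 alternative analysis. The changes of sign given next are those of further probes and of genes that were not called. Second probes were at -0.001 for Sf3b4, -0.003 for Lss, 0.007 for Igf1r and -0.001 for H2-DMb2. Other dimmer probes were at 0.06 for Wls, 0.01 for Ankhd1 and -0.01 for Xpnpep1. Tspan18 in white fat was at -0.019 and Ucp1 at -0.153 with the brown adipocyte score, and at -0.013 and -0.091 without both arrays of raised Ucp1. Fasn was at -0.028 and -0.044 without low-fat replicates 3 and 4. Of 959 list medians recomputed, 4 moved by over 1 SD of the list's level between arrays. The causes were not tested. Depth in the sense of reads does not apply to arrays; 4 low-fat arrays bound every pooled result.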

Other observations

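Of the 52 called probes, 29 represent a gene, 17 are further probes of named genes and 6 are unnamed. Further probes passed that their gene's brightest probe did not bear out as a call. Klf4, a transcription factor of vessel walls and myeloid cells, fell by 0.38 at a dimmer probe (limma adjusted p = 0.0198), while its brightest probe was at -0.31 ± 0.08 (adjusted p = 0.154). Ccng1, a p53 target of the cyclin family, was at 0.46 (adjusted p = 0.0354), Art3, an ADP-ribosyltransferase relative, at -0.67 (adjusted p = 0.0444) and Slc43a1, an amino acid transporter, at -0.62 (adjusted p = 0.0418). Lrrc8a, the subunit of the volume-regulated anion channel, was at -0.34 (adjusted p = 0.0444) and was higher on EPA/DHA than on corn oil by 0.33 (adjusted p = 0.0317). These genes were singled out after their values were seen.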
